A study of Mus musculus with 23 samples.

Results

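The genes described here are 38 genes that mark B cells (14 genes), T cells (17 genes) and NK or other cytotoxic cells (7 genes), picked by symbol from the 55335 genes of a whole-lung table. They were measured by bulk RNA-Seq of polyA RNA from the entire lung, 3 control libraries and 3 neutrophil-depleted libraries. According to the study's methods, the depleted mice received an i.p. injection of an antibody to Ly6G, the surface protein of mouse neutrophils, in the days before analysis, and the control mice an isotype antibody. The deposited labels call the 2 groups wt and pmn deletion (both tagged wt_pmn_deletion), and give no strain, age, sex or time. Nothing in the labels says that each library is a separate animal, so the p-values given here measure the spread between these samples. The other 17 bulk libraries of the series are sorted neutrophils from lung, PB and BM, including *Piezo1*-cKO mice, and serve only to show how far neutrophils themselves carry these transcripts.

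B cells sense antigen through surface immunoglobulin coupled to the signalling chains CD79A and CD79B, and T cells through the T cell receptor coupled to the CD3 chains. NK cells carry activating and inhibitory receptors, and release perforin and granzymes. In a resting lung many of these lymphocytes sit in the capillaries, side by side with marginated neutrophils, so a whole-lung extract holds RNA of both. In such an extract, fewer cells of a type and less RNA per cell cannot be told apart. The comparison asks whether depletion with an antibody aimed at neutrophils left the lymphocyte transcripts of the lung at the level of control lungs.

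The depletion itself was read from the neutrophil list. *Ly6g*, the gene of the antibody's target, was too low to serve as a check, at 0.068, 0.577 and 0.071 FPKM (fragments per kilobase of transcript, scaled to the library) in control lungs and 0.075, 0 and 0.118 in depleted lungs. The summed level of 14 neutrophil genes was 319, 281 and 297 FPKM in control and 196, 202 and 103 in depleted lungs, so the groups did not overlap. Of the 11 neutrophil genes tested, 9 had an unadjusted p below 0.05 and a lower level, against 7.69% of all genes tested. The median log2 fold change of the 11 was -1.09, and none was called. *Csf3r*, the receptor for the growth factor G-CSF, had 12.7, 11.8 and 11.4 FPKM in control and 5.27, 2.74 and 1.83 in depleted lungs, a log2 fold change of -1.68 (SE 0.26, adjusted p = 0.129 from limma). The granule genes *Ltf* and *Lcn2*, which lung epithelium also makes, overlapped between the groups. FPKM summed to 345075.1 to 391908.1 per library, and 13564 to 14045 genes reached 1 FPKM. Read counts could not be recovered from these values, so depth per gene is unknown. The lung itself was plainly present, with all 12 endothelial and all 8 alveolar type II genes above the filter, and depleted replicate 3 lay 40.5 to 44.2 log2 units from the control libraries, against 34.9 to 42.7 for the other depleted libraries.

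Lymphocyte transcripts lay lower in the depleted lungs in nearly every gene measured, B cell genes most, but no single gene passed the test. Of the 38 members, 34 had at least 1 FPKM in at least 3 of the 6 libraries and were tested by limma over all 13990 such genes, while *Cr2*, *Cd5*, *Cd6* and *Eomes* were too low. None of the 34 was called (adjusted p below 0.05, with a log2 fold change beyond 0.5 in either direction), where 1 of 13990 genes was (0.00715%; that gene, *Aqp5*, was lower, so 0.00715% were called lower and 0% higher). The study itself used DESeq2 on read counts with the same thresholds and reported many genes affected by the depletion. The count of 1 therefore belongs to limma on FPKM. Adjusted p-values of the members ran from 0.155 to 0.863. At an unadjusted p below 0.05, 18 of 34 members lay lower and none higher, against 11.2% of all genes tested (7.69% lower and 3.53% higher). The log2 fold change was below 0 in 33 of 34 members, against 61.5% of all genes tested. The median log2 fold change was -0.36 over the members and -0.04 over all genes tested. Every depleted library was below every control library in 17 of the 34 members, against 11.8% of all genes tested, and no member had every depleted library above every control, against 5.59%. The members were read in the same 6 libraries and are not independent of each other. They were also chosen with earlier results of these data known, so these counts describe the list and do not test it. Without a filter on low values, 28886 genes were tested and 0 called by limma (0%), of which 4.82% lay lower and 2.22% higher at an unadjusted p below 0.05. In that fit 15 of the 38 members lay lower at that threshold. All the depleted libraries lay below all the control libraries in 19 of the 38 members and in 8.12% of those 28886 genes, 58.3% of which had a log2 fold change below 0.

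**Figure D1:**
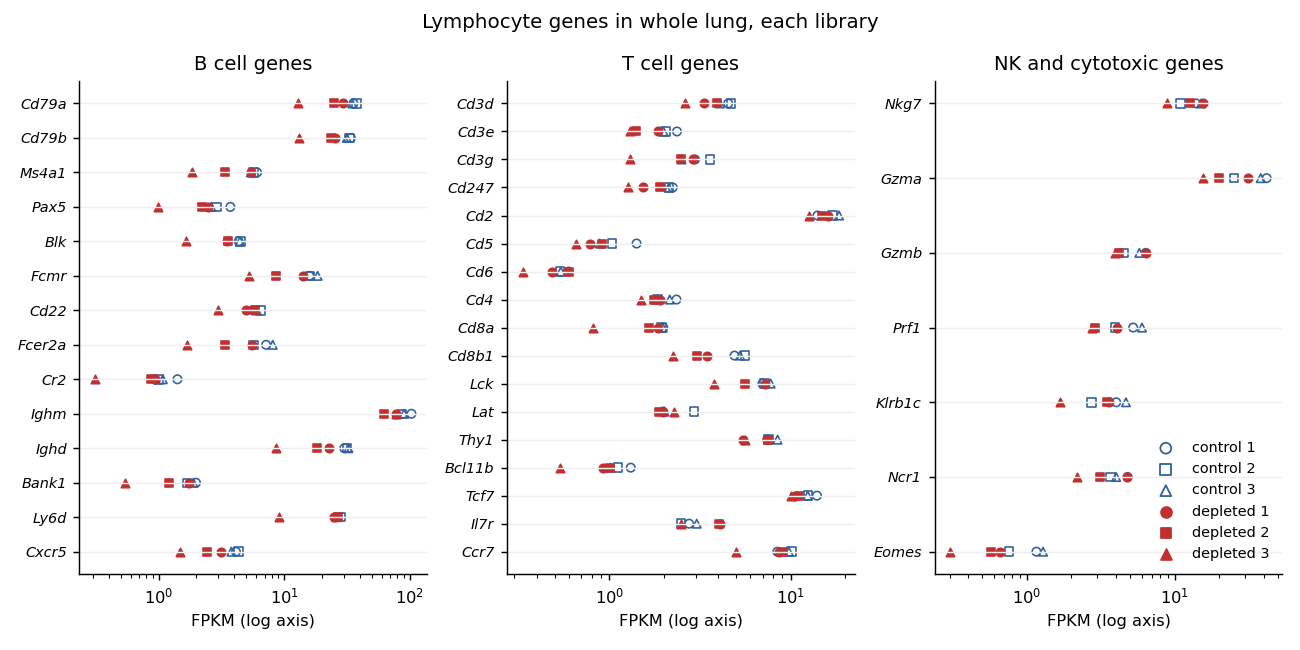
FPKM (log axis) of each of the 38 genes in each of the 6 libraries, open blue symbols for control and filled red symbols for depleted lungs, with circle, square and triangle for replicates 1, 2 and 3. The red triangle of depleted replicate 3 is the lowest point in 34 of 38 genes, and in most B cell genes the other red points also lie left of the blue ones.

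The promoters of 4 members are shown first, 1 from the B cell list, 1 from the T cell list and 2 from the cytotoxic list, because they carry the recurring short motifs of lymphocyte promoters. Sequences are RefSeq promoters of build GRCm38.p6, upstream of the transcription start, 5′ to 3′ on the gene's strand, and bases that GENCODE places in an exon of the gene were left out. Capitals mark the E-box CAGGTG, the ETS motif AGGAAGT and the RUNX motif TGTGGT, each on either strand. Bases just after the start were found in a GENCODE transcript of the gene for *Cd79a*, *Cd3d* and *Gzma*, but not for *Prf1*.
Cd79a, chr7:24897247-24897380 (+): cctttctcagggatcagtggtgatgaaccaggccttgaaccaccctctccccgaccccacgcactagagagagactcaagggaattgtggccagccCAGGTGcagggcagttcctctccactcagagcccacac
Cd3d, chr9:44981536-44981785 (+): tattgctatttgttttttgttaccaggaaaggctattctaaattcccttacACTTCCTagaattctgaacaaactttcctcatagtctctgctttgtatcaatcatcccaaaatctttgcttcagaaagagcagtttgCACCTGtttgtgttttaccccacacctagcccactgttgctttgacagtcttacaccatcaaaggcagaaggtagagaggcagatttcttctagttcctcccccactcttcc
Gzma, chr13:113100982-113101231 (-): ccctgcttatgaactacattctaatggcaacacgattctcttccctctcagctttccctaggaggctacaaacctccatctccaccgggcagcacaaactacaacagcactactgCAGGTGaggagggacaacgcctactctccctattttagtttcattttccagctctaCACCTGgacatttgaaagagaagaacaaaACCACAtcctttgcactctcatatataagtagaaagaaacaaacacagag
Prf1, chr10:61297586-61297832 (+): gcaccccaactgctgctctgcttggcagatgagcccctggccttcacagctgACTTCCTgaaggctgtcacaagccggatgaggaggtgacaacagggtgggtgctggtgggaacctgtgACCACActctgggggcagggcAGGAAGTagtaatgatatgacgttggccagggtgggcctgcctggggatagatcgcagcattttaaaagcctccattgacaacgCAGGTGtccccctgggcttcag
E-boxes bind the E proteins that B and T cell development requires, ETS motifs bind factors such as ETS1 and PU.1, and RUNX motifs bind RUNX1 and RUNX3. The RefSeq table held a promoter for 25 of the 38 members (7 B, 11 T and 7 cytotoxic genes) and for 27025 genes in all, and 250 bases before the start were searched. CAGGTG stood in 5 of 7 B cell promoters (*Cd79a*, *Cd22*, *Fcer2a*, *Cr2*, *Bank1*), 5 of 11 T cell promoters and 2 of 7 cytotoxic promoters, against 19.4% of all genes. AGGAAGT stood in 6 of 11 T cell promoters (*Cd3d*, *Cd3e*, *Cd247*, *Cd5*, *Lck*, *Il7r*), in *Cd79a* and in *Prf1*, against 8.80% of all genes, although the *Cd79a* and *Cd3e* matches fall in or run into exon bases that are not printed. TGTGGT stood in 6 of 7 cytotoxic promoters (*Nkg7*, *Gzma*, *Gzmb*, *Prf1*, *Klrb1c*, *Ncr1*), 1 of 7 B and 1 of 11 T cell promoters, against 15.9% of all genes. The octamer ATGCAAAT had no match in any member's window (1.81% of all genes), although it is typical of immunoglobulin promoters. These 4 motifs were picked from a longer set after their matches had been seen, and a match is no evidence that a factor binds.

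The B cell genes lay lowest relative to control. *Cd79a* and *Cd79b*, the signalling chains of the B cell receptor, and *Ighd*, the constant region of IgD on mature naive B cells, had all 3 depleted lungs below all 3 control lungs. *Cd79a* (chr7:24897381-24902197, plus strand, GRCm38) had 35.6, 37.9 and 34.9 FPKM in control and 29.3, 24.8 and 12.9 in depleted lungs, a log2 fold change of -0.74 (SE 0.26, adjusted p = 0.362 from limma). *Cd79b* had 34.0, 33.2 and 31.6 against 25.4, 23.4 and 13.2 FPKM (log2 fold change -0.70, SE 0.22). The control lungs lay close to one another in both chains, while the depleted lungs spread widely, with replicate 3 far below replicates 1 and 2. *Cd79a* and *Cd79b* stayed in nearly the same proportion, with a *Cd79b* to *Cd79a* ratio of 0.955, 0.878 and 0.906 in control and 0.864, 0.946 and 1.02 in depleted lungs.

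*Ighd* (chr12:113406604-113416324, minus strand) had the lowest log2 fold change of any tested member, -0.98 (SE 0.30, adjusted p = 0.297 from limma), with 30.2, 31.6 and 32.5 FPKM in control and 22.7, 18.3 and 8.67 in depleted lungs. That rank depended on the pseudocount of 1, since with a pseudocount of 0.1 *Fcer2a* (-1.10) lay below *Ighd* (-1.03). *Ighm* (chr12:113418558-113422730, minus strand), the IgM constant region that lies beside *Ighd*, had 103, 86.8 and 90.2 FPKM in control and 78.0, 62.0 and 77.9 in depleted lungs, a log2 fold change of -0.36 (SE 0.12). Both genes had all depleted lungs below all control lungs, but they ordered the depleted lungs differently. *Ighm* was at 83.4% of the control mean in depleted replicate 3, and *Ighd* at 27.6%. The *Ighd* to *Ighm* ratio was 0.292, 0.364 and 0.361 in control, 0.291 and 0.295 in depleted replicates 1 and 2, and 0.111 in depleted replicate 3. *Ms4a1*, which encodes CD20, had 6.09, 5.71 and 5.42 FPKM in control and 5.40, 3.37 and 1.83 in depleted lungs (log2 fold change -0.65, SE 0.27), with depleted replicate 1 just under the lowest control.

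The other B cell genes followed. *Fcer2a*, the low-affinity IgE receptor CD23 of follicular B cells, had a log2 fold change of -0.90 and *Fcmr*, an IgM receptor, of -0.87. *Cxcr5*, the receptor that guides B cells into follicles, was at -0.63, with adjusted p = 0.277 from limma, the lowest of the list. *Pax5*, the factor that fixes B cell identity, was at -0.53 and the SRC-family kinase gene *Blk* at -0.52. In these 5 genes all depleted lungs lay below all control lungs. *Ly6d* (-0.51), the adaptor gene *Bank1* (-0.44) and the inhibitory lectin gene *Cd22* (-0.37) overlapped between the groups. *Ly6d* had 26.0, 28.2 and 26.0 FPKM in control and 25.2, 26.8 and 9.11 in depleted lungs, so that its difference rested on depleted replicate 3, without which the log2 fold change was -0.038. *Cr2*, the complement receptor CD21, was below the filter, with 1.41, 0.999 and 1.08 FPKM in control and 0.931, 0.870 and 0.313 in depleted lungs, which did not overlap. In all, 10 of the 13 tested B cell genes had an unadjusted p below 0.05 and a lower level, against 7.69% of all genes tested. The median log2 fold change of the 13 was -0.63, and 0 were called by limma (adjusted p 0.277 to 0.653).

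**Figure D2:**
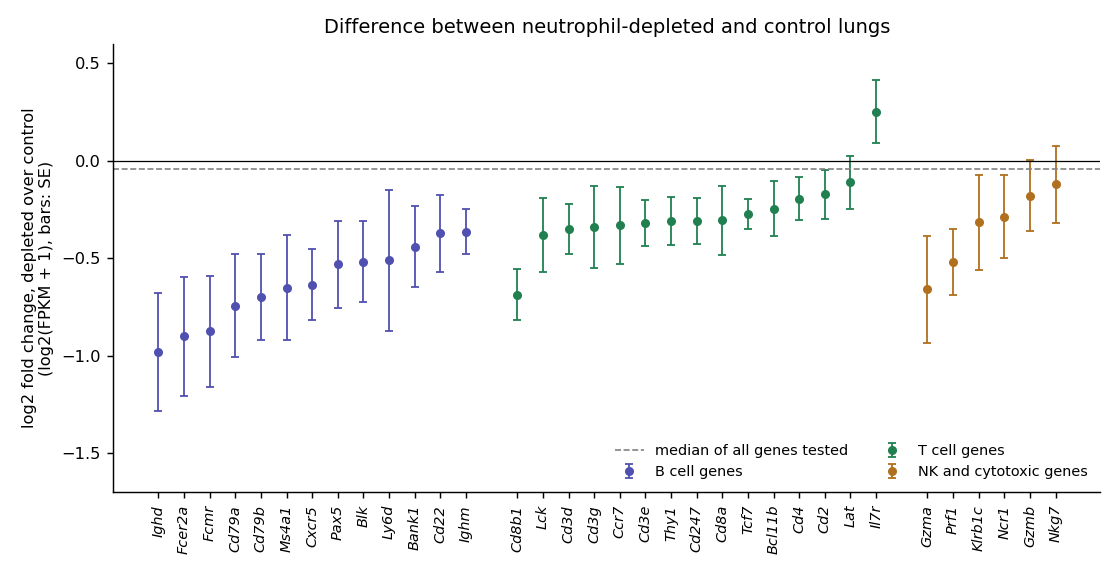
Log2 fold change (depleted over control, on log2(FPKM + 1)) with its standard error for the 34 members tested, grouped by lineage, and the median of all genes tested as a dashed line at -0.04. B cell genes run from -0.98 (*Ighd*) to -0.36 (*Ighm*), and *Il7r* is the 1 gene above 0.

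T cell genes lay closer to control. The chains of the CD3 complex and *Cd247*, the zeta chain, had log2 fold changes of -0.35 to -0.31, and the co-receptor gene *Cd8b1* stood below them. *Cd8b1* (chr6:71322788-71337494, plus strand), the beta chain of the CD8 co-receptor of cytotoxic T cells, had 4.90, 5.60 and 5.26 FPKM in control and 3.45, 3.04 and 2.26 in depleted lungs. Its log2 fold change was -0.69 (SE 0.13, unadjusted p = 0.00108, adjusted p = 0.155 from limma), the lowest adjusted p among the members. *Cd8a*, the alpha chain, had 1.99, 1.94 and 1.97 FPKM in control and 1.85, 1.66 and 0.817 in depleted lungs (log2 fold change -0.31, SE 0.18). Both chains had all depleted lungs below all control lungs, but the *Cd8b1* to *Cd8a* ratio overlapped between the groups. *Cd4*, the co-receptor of helper T cells, had 2.35, 1.84 and 2.15 against 1.90, 1.77 and 1.50 FPKM (log2 fold change -0.19, SE 0.11), with overlapping groups.

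*Cd3d* had 4.53, 4.68 and 4.07 FPKM in control and 3.35, 3.92 and 2.60 in depleted lungs, a log2 fold change of -0.35 (SE 0.13). *Cd3e* (chr9:44998740-45009627, minus strand) had 2.36, 2.04 and 1.99 against 1.86, 1.40 and 1.30 FPKM, a log2 fold change of -0.32 (SE 0.12, adjusted p = 0.393 from limma). *Cd247* had 2.24, 2.13 and 2.13 against 1.54, 1.91 and 1.27 FPKM (log2 fold change -0.31, SE 0.12). These 3 signalling chains did not overlap between the groups, whereas *Cd3g*, with 2.97, 3.59 and 2.50 against 2.91, 2.49 and 1.30 FPKM (log2 fold change -0.34, SE 0.21), did.

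Among the other T cell genes, *Tcf7*, a factor of naive and memory T cells, had a log2 fold change of -0.27 (SE 0.08, adjusted p = 0.277 from limma) with non-overlapping groups, and *Bcl11b*, a factor of T lineage commitment, was at -0.25, also without overlap. The kinase gene *Lck* was at -0.38, the lymph node homing receptor gene *Ccr7* at -0.33, *Thy1* at -0.31, the adhesion gene *Cd2* at -0.17 and the adaptor gene *Lat* at -0.11, all with overlap. *Il7r*, the receptor for the survival cytokine IL-7, was the 1 member with a positive log2 fold change, 0.25 (SE 0.16, adjusted p = 0.619 from limma), with 2.76, 2.48 and 3.04 FPKM in control and 4.09, 4.02 and 2.49 in depleted lungs. Depleted replicates 1 and 2 lay above every control lung in *Il7r* and replicate 3 lay within the control range. *Cd5*, a brake on receptor signalling, and *Cd6* were below the filter, at 0.653 to 0.910 and 0.334 to 0.602 FPKM in depleted lungs. Of the 15 tested T cell genes, 6 had an unadjusted p below 0.05 and a lower level, against 7.69% of all genes tested. In 7 of the 15 all depleted lungs lay below all control lungs, against 11.8% of all genes tested. The median log2 fold change of the 15 was -0.31, and 0 were called by limma (adjusted p 0.155 to 0.816).

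In the NK and cytotoxic genes the control lungs themselves differed, and no tested gene separated the groups. *Gzma* (chr13:113093825-113100981, minus strand), the granzyme A of NK and cytotoxic T cells, had 42.0, 25.3 and 38.3 FPKM in control and 31.5, 19.8 and 15.7 in depleted lungs. Its log2 fold change was -0.66 (SE 0.27, adjusted p = 0.436 from limma). *Prf1*, perforin, had 5.25, 3.95 and 6.02 against 4.06, 2.89 and 2.75 FPKM (log2 fold change -0.52, SE 0.17). In both genes control replicate 2 lay among the depleted values. *Ncr1*, the NK receptor NKp46, had 4.81, 3.68 and 4.03 FPKM in control and 4.78, 3.12 and 2.17 in depleted lungs (log2 fold change -0.29, SE 0.21). *Nkg7*, a granule membrane protein, had 14.0, 10.9 and 15.1 against 15.5, 12.7 and 8.92 FPKM (log2 fold change -0.12, SE 0.20), and depleted replicate 1 was the highest of all 6 lungs. *Klrb1c*, the NK1.1 antigen, was at -0.32 and *Gzmb* at -0.18. *Eomes*, a factor of NK cells below the filter, had 1.16, 0.757 and 1.29 FPKM in control and 0.662, 0.576 and 0.304 in depleted lungs, which did not overlap. Of the 6 tested genes, 2 (*Prf1* and *Gzma*) had an unadjusted p below 0.05 and a lower level, against 7.69% of all genes tested. The median log2 fold change of the 6 was -0.30, and 0 were called by limma (adjusted p 0.327 to 0.863).

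Read lung by lung, the depleted libraries differed from one another in the lymphocyte genes, and depleted replicate 3 was lowest in all 3 lists. The median B cell gene was at 80.6%, 67.5% and 33.2% of the control mean in depleted replicates 1, 2 and 3, the median T cell gene at 86.2%, 85.5% and 58.8% and the median NK or cytotoxic gene at 94.2%, 74.7% and 52.1%. Over all genes tested the medians were 97.0%, 97.8% and 94.8%. Depleted replicate 3 was the lowest of the 6 libraries in 34 of 38 members (13 of 14 B, 14 of 17 T and 7 of 7 NK), against 24.6% of all genes tested. Depleted replicate 1 lay below every control lung in 13 of 14 B, 10 of 17 T and 1 of 7 NK genes, and depleted replicate 2 in 12, 11 and 5 of them. For a single depleted lung, the share of all genes below every control lung was not worked out, so these counts are description only. Without depleted replicate 3, 8 of 13 B, 2 of 15 T and 0 of 6 NK genes lay lower at an unadjusted p below 0.05 by limma, against 5.97% of all 13842 genes tested. The median log2 fold change was then -0.41 for B, -0.16 for T and -0.07 for NK genes, and -0.03 over all genes. Both remaining depleted lungs were below all control lungs in 10 of the 13 B, 7 of the 15 T and 0 of the 6 NK genes, against 16.7% of all genes.

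**Figure D3:**
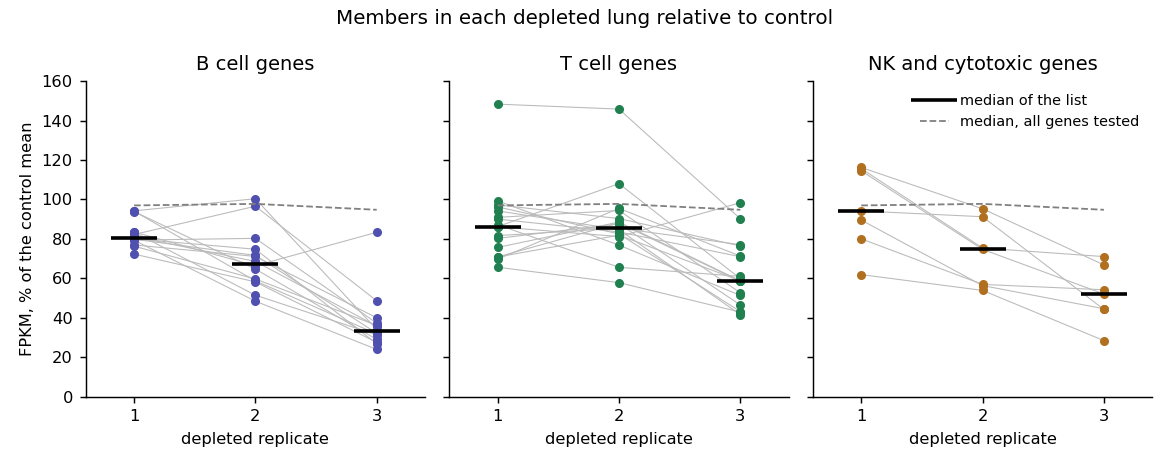
FPKM of each member in each depleted lung as a percentage of the mean of the 3 control lungs, by lineage, with grey lines joining the values of 1 gene, black bars at the median of each list and a dashed line at the median of all genes tested. The medians of the B cell genes are 80.6%, 67.5% and 33.2%, while the dashed line stays between 94.8% and 97.8%.

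Summed over the 14 genes, B cell transcripts came to 279.6, 266 and 267 FPKM in control and 222, 187 and 139 in depleted lungs (271 ± 7.53 against 183 ± 42.1, SD, n = 3 each), or 67.4% of control. T cell transcripts came to 80.3, 84.3 and 84.5 against 73.1, 72.6 and 54.2 FPKM (83.0 ± 2.37 against 66.6 ± 10.7), or 80.3%. Both sums separated the groups. NK and cytotoxic transcripts came to 77.6, 51.9 and 75.2 against 66.5, 46.8 and 35.5 FPKM (68.2 ± 14.2 against 49.6 ± 15.7), or 72.7%, with overlapping groups. *Gzma* alone had a mean of 35.2 FPKM in control and 22.3 in depleted lungs, so the NK sum and its ratios rest largely on that gene. The ratio of the B to the T cell sum was 3.48, 3.16 and 3.16 in control and 3.04, 2.58 and 2.55 in depleted lungs, without overlap, and without *Ighm*, the most abundant member, it was 2.20, 2.13 and 2.09 against 1.98, 1.72 and 1.12. The ratio of the NK to the T cell sum overlapped, at 0.967, 0.616 and 0.890 against 0.911, 0.645 and 0.654. No test of a difference between the lineages was made.

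**Figure D4:**
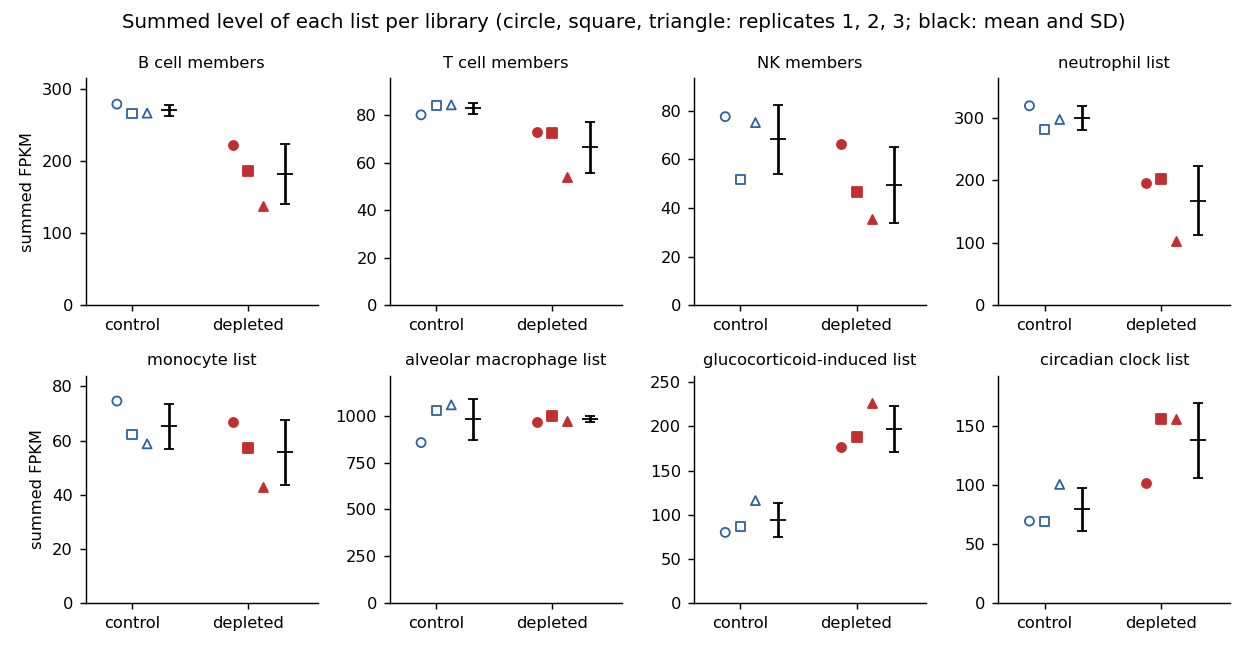
Summed FPKM of the member lists and of 5 other gene lists in each library, open blue symbols for control and filled red for depleted lungs, with the mean and SD (n = 3) in black. The B cell sum is 266 to 279.6 in control and 139 to 222 in depleted lungs, the glucocorticoid-induced list is higher in every depleted lung, and the alveolar macrophage list overlaps.

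Other lists of genes from the same cells had medians nearer to 0 than the members of that lineage, except the further cytotoxic genes. At an unadjusted p below 0.05, 7.69% of all genes tested lay lower and 3.53% higher, against which the counts of these lists are read. Of 18 further B lineage genes tested, 9 lay lower and 0 higher at an unadjusted p below 0.05, with a median log2 fold change of -0.39 and 0 called by limma, against 10 of 13 and -0.63 for the B cell members. The largest difference was at *Fcrla*, a B cell Fc receptor-like gene, with 5.89, 5.16 and 8.88 FPKM in control and 4.10, 3.95 and 2.31 in depleted lungs (log2 fold change -0.78, SE 0.23). Of 15 genes of B cell receptor signalling, only 4 lay lower and 1 higher, with a median of -0.23 and 0 called. *Cd72*, an inhibitory co-receptor, stood out with 3.07, 3.55 and 3.79 against 2.30, 2.12 and 1.85 FPKM (log2 fold change -0.53, SE 0.11, adjusted p = 0.167 from limma). Of 11 genes of T cell receptor signalling 3 lay lower (median -0.22, 0 called), with *Trbc2*, a constant region of the receptor beta chain, at a log2 fold change of -0.43 (SE 0.17). Among 8 T cell receptor variable segments, 2 lay lower and 3 had a log2 fold change above 0 (median -0.08, near the -0.04 of all genes), with *Trbv3* at a log2 fold change of -0.68. Of 12 NK receptor genes 1 lay lower, *Klra3*, of the Ly49 family, at -0.51 (SE 0.14), with a median of -0.22 and 0 called. That count is near the share of all genes tested that lay lower. Ly49 genes are close paralogs, so their reads may be split between copies. Of 8 further cytotoxic genes 2 lay lower (median -0.35), the largest difference being the chemokine gene *Ccl4* at -0.60 (SE 0.20).

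Genes of lymphocyte traffic were mixed. Of 8 such genes, 2 lay lower and 1 higher at an unadjusted p below 0.05 (median log2 fold change -0.18, 0 called by limma). *S1pr1*, the exit receptor that lung endothelium also expresses, had 77.1, 63.4 and 84.1 against 114, 90.1 and 103 FPKM (log2 fold change 0.45, SE 0.13), which did not overlap. Of 6 lymphoid chemokine and cytokine genes, 3 lay lower and 1 higher, with *Ltb*, lymphotoxin beta, at -0.63 (SE 0.20). Of 6 genes of γδ T cells and innate lymphoid cells, 2 lay lower and 1 higher, with *Gata3* at -0.45 (SE 0.13), and the 1 regulatory T cell gene above the filter, *Tnfrsf18*, was at -0.16 (SE 0.20). The 8 proliferation genes tested had a median of -0.17, with *Ccnb2* at -0.29 (SE 0.20), and 0 had an unadjusted p below 0.05 by limma.

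The immunoglobulin genes held an exception to the low level of B cell genes in depleted replicate 3. *Igkc*, the kappa constant region, had 154, 148 and 156 FPKM in control and 106, 102 and 109.5 in depleted lungs, a log2 fold change of -0.53 (SE 0.07, adjusted p = 0.081 from limma), with the 3 depleted lungs close together. *Iglc3*, a lambda constant region, had 26.6, 22.8 and 24.1 against 14.8, 13.9 and 4.89 FPKM (log2 fold change -1.19, SE 0.36). Of 6 constant region genes tested 4 lay lower at an unadjusted p below 0.05 (median -0.59). Of 80 variable segments tested 18 lay lower and 1 higher (median -0.38), with *Igkv4-72* the farthest from 0 at -1.13, and 0 of either kind were called by limma.

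A pair of variable segments, named after their values were seen, had high levels in depleted replicate 3 alone. *Igkv1-117* had 50.5 FPKM there and 6.55 to 8.10 in the other 5 lungs. *Ighv1-15* had 38.3 FPKM there and 0.520 to 1.12 in the others. Together they gave 21.6% and 16.4% of the summed variable segments of that lung, whereas the leading segment of each other lung, *Iglv1*, gave 4.60% to 6.58%. *Jchain*, which links IgM and IgA secreted by plasma cells, had 2.86, 0.841 and 1.70 FPKM in control, 1.20 and 1.46 in depleted replicates 1 and 2 and 5.14 in replicate 3. *Igha* overlapped between the groups, at 8.19, 2.13 and 6.12 against 3.76, 4.80 and 5.98 FPKM. Of 8 plasma cell genes, 1 lay lower at an unadjusted p below 0.05 (median log2 fold change -0.13), and *Txndc5* had the largest difference, at -0.43 (SE 0.27). Variable segments are near-identical copies whose reads may be split between neighbours, so the naming of single segments is uncertain.

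**Figure D5:**
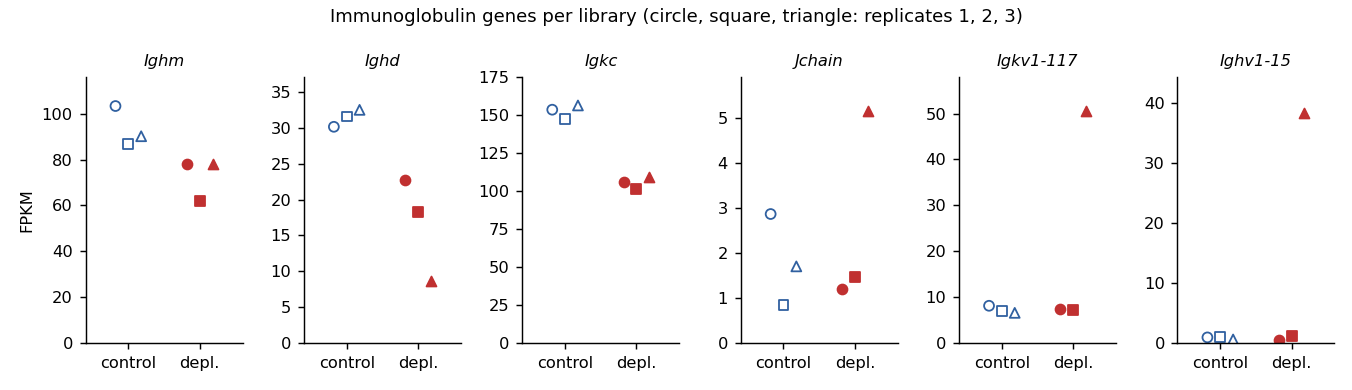
FPKM of 6 immunoglobulin genes per library, open blue for control and filled red for depleted lungs. *Ighd* is lowest in depleted replicate 3 (8.67), while *Jchain* (5.14), *Igkv1-117* (50.5) and *Ighv1-15* (38.3) are highest there.

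Sorted neutrophils carried little of most members. In 17 libraries of CD45+CD11b+Ly6G+ neutrophils, whose tables were normalised separately from whole lung, 36 of the 38 genes were listed and 30 of them stayed below 1 FPKM in every library. *Ighm* and *Ighd* were not listed, so their level in neutrophils is unknown here. *Ncr1* and *Eomes* were listed at 0 throughout, *Cd79a* reached at most 0.532 FPKM and *Cd3e* at most 0.115. *Bank1*, *Cd3d* and *Cd6* had at least 1 FPKM in all 17. *Cd3d* had 5.23 ± 0.534 FPKM in BM, 3.08 ± 0.616 in PB and 1.67 ± 0.272 in lung neutrophils of WT mice (SD, n = 3 each), and *Bank1* 4.79 ± 0.192, 3.00 ± 0.126 and 2.05 ± 0.112. *Cd6* had 1.84 ± 0.138, 1.65 ± 0.180 and 2.23 ± 0.379 FPKM in the same order. *Cxcr5* reached 1 FPKM in 9 of 17 libraries, *Lat* in 3 and *Cd3g* in 2. Transcripts counted on *Cd3d*, *Bank1*, *Cd6* and *Cxcr5* were thus present in the depleted cell type as well, and its part in their level in whole lung was not tested. *Cd3e*, the other CD3 chain whose groups did not overlap, was near 0 in neutrophils. Among members that overlap other genes, *Cxcr5* overlaps *Bcl9l* and *Cd247* overlaps *Pou2f1*, both protein-coding and on the opposite strand. *Klrb1c* overlaps the protein-coding *Gm44511* on its own strand. *Bank1*, *Cd3e*, *Cd247*, *Ms4a1*, *Pax5*, *Cd22*, *Tcf7* and *Eomes* each overlap an antisense gene. Since the strand used in counting is not given in the sources used here, reads of such partners cannot be told apart.

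Other lists differed beside the lymphocyte genes. The 6 glucocorticoid-induced genes summed to 79.9, 86.3 and 116 FPKM in control and 177, 188 and 226 in depleted lungs, with 5 of 6 higher at an unadjusted p below 0.05 and a median log2 fold change of 1.31. *Zbtb16*, the steepest of them, had 2.80, 1.99 and 5.52 FPKM in control and 15.9, 29.3 and 27.6 in depleted lungs (log2 fold change 2.54, SE 0.33, adjusted p = 0.0887 from limma). The 11 circadian clock genes summed to 68.7 to 100.5 FPKM in control and 101 to 156 in depleted lungs. At an unadjusted p below 0.05, 6 of them lay higher and 2 lower, against 3.53% and 7.69% of all genes tested. Depleted replicate 3 had both the highest glucocorticoid-induced sum and the lowest lymphocyte sums. No gene of either list was at 0 in every library, and their part in the level of the lymphocyte genes was not tested. The 8 monocyte genes summed to 58.8 to 74.6 FPKM in control and 43.0 to 66.8 in depleted lungs (2 lower, 0 higher), again lowest in depleted replicate 3. The 10 alveolar macrophage genes summed to 857 to 1058 against 969 to 999 FPKM and the 12 endothelial genes to 966 to 1263 against 931 to 1110, and in both the groups overlapped. Of 8 fibroblast genes, 4 lay lower and 0 higher at an unadjusted p below 0.05, with a median log2 fold change of -0.25 (0 called by limma), not far from the -0.31 of the T cell genes. The log2(FPKM + 1) scale understates low genes such as *Cd3e* (-0.32, but -0.47 with a pseudocount of 0.1), so these medians are not fully comparable. *Col3a1*, a fibrillar collagen, had 116, 117 and 93.7 FPKM in control and 61.6, 81.7 and 86.1 in depleted lungs (log2 fold change -0.51, SE 0.15), lowest in depleted replicate 1, and the fibroblast sum was highest in depleted replicate 3. Of 6 dendritic cell genes 2 lay lower and 0 higher at that threshold, but 4 had a log2 fold change above 0 and the median was 0.02. The 5 erythroid genes were at 643 FPKM in depleted replicate 2 and 1165 to 1678 in the other lungs, and the part of blood content in the levels given here was not tested. The 9 markers of thymus, a source of T cell RNA that can be dissected with the lung, stayed under 1 FPKM in sum (0.426 to 0.940), with *Ptcra* and *Psmb11* at 0 in every library.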

How the data were processed

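Libraries of whole lung, 3 control and 3 neutrophil-depleted, were compared by bulk RNA-Seq. As deposited, the values are FPKM per gene, which the authors made with fastp, HISAT2 and HTSeq on mm10. The versions and the strand setting are not given in the sources used here. The labels name a SMARTER kit and the paper's methods a VAHTS Universal V6 kit. Other deposited columns, of the authors' own comparisons, were not used: they hold, for the sorted neutrophils, a fold change (ratio), p value and q value from DESeq2 and a mean normalised signal per group.

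Groups came from the deposited labels. Genes with at least 1 FPKM in at least 3 of 6 libraries (13990 of 55335) were tested by limma-trend (limma 3.58.1 under R 4.3.3, with a trended, robust eBayes step) on log2(FPKM + 1), with Benjamini-Hochberg adjustment over all of them, and were called where the adjusted p was below 0.05 and the log2 fold change beyond 0.5 in either direction. Fold changes on this scale understate those of low genes. Whole reads could not be recovered, so no count test was run and no depth is known. The plan named this test and was kept. Symbols were matched in the table, 55154 identifiers were placed with GENCODE M21, and 26 symbols stood as dates.

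All 38 members are accounted for. Values in each library are given for the receptor and effector genes of each lineage, and from each further lymphocyte list the gene with the largest absolute log2 fold change is named, apart from 1 that is not reported here. The members and lists were chosen with earlier results of these data known. The fit was tested on simulated data. The fit was repeated with each library left out, with a pseudocount of 0.1, without the filter, on FPKM rescaled to a common median ratio, with a replicate block, on the adjusted p alone, with a log2 fold change threshold of 1 and, added after the data were seen, eBayes without trend and robust. Figures were made with Python 3.11.15, pandas 2.3.3 and matplotlib 3.10.9.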

Additional observations from a re-analysis of the deposited data

How the results depend on the processing

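No member was called under any of the 13 alternatives, where the lowest adjusted p of a member was 0.128. The 1 gene called over the whole table became 4 with a pseudocount of 0.1 (3 lower, 1 higher), 0 with no filter (0 lower), and 0 to 12 with each library left out (0 to 6 lower, 0 to 6 higher). It was *Aqp5*, which was not called with no filter (-1.51), without control replicate 3 (-1.54), without depleted replicate 2 (-1.53) or without depleted replicate 3 (-1.57). Leaving out single libraries moved the number of B cell genes that were lower at an unadjusted p below 0.05 from 10 to between 4 and 11, that of T cell genes from 6 to between 2 and 5, and that of NK genes from 2 to between 0 and 4. B cell genes were fewest without control replicate 3 (4), then without control replicates 1 (5) and 2 (6). T cell genes were fewest without control replicate 2 (2) or depleted replicate 3 (2), and control replicate 1 left 3. NK genes were at 0 without control replicate 3, depleted replicate 2 or depleted replicate 3, at 1 without control replicate 1 and at 4 without depleted replicate 1. The number of NK genes was 1 with rescaled FPKM and 1 with eBayes without trend and robust. With fewer libraries the fits have fewer degrees of freedom. The cause of the other shifts was not tested.

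Same-numbered libraries showed little shared deviation (correlations of 0.06, 0.04 and -0.03, against -0.092 to 0.057 for libraries of different number). With 3 libraries per group this cannot exclude a pairing. With the replicate block 5 genes were called over the whole table (2 lower, 3 higher) and 0 members.

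Of 712 log2 fold changes recomputed for 65 genes, 703 kept their direction and side of the threshold. With each library left out, *Lat* ran from -0.181 to 0.022 (without control replicate 2), *Nkg7* from -0.287 to 0.080 and *Tnfrsf18* from -0.279 to 0.030 (without depleted replicate 3), and *Hba-a2* from -0.536 to 0.092 (without depleted replicate 2). *Csf3r* was called at -1.99 without depleted replicate 1. The summed B, T and NK levels stayed at 60.1% to 75.5%, 76.4% to 87.7% and 60.3% to 83.1% of control with each library left out. Depth per gene is unknown, and members near 1 FPKM rest on few reads.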
